A study of Monodelphis domestica with 2 samples.

Results

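The oxidative phosphorylation genes of the opossum primary visual cortex (V1) were taken by name. Every gene whose symbol begins with NDUF, COX and a digit, ATP5, UQCR or SDHA to SDHD, or is CYC1 or CYCS, was a member. This gave 64 of the 30800 genes in the files, 11590 of which carried a symbol, so a respiratory chain gene listed only by its identifier was not counted. Counts of RNA molecules (UMIs, unique molecular identifiers) came from single nuclei of a marsupial cortex, that of the gray short-tailed opossum. The samples formed 1 group of 2 adult males, aged 1.5 years (animal 1) and 2 years (animal 2), with no treatment or genotype contrast. Cortex of both hemispheres was pooled by animal, frozen for about 1 year, sorted as stained nuclei, and split into 2 libraries per animal from the same suspension. The animals were handled by different experimenters, so age, handling and animal cannot be told apart. The study named 18 subclasses by clustering these same nuclei, and whether members were among the genes that drove the clustering is not given in the sources used here.

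Oxidative phosphorylation takes place in the inner membrane of mitochondria. Complexes I and II feed electrons from metabolism into the chain, complex III passes them to cytochrome c, complex IV hands them to oxygen, and ATP synthase uses the resulting proton gradient to make ATP. Most subunits are encoded in the nucleus and a few in mitochondrial DNA, and assembly factors build the complexes without staying in them. In cortex, Pvalb interneurons are known for fast, sustained firing and for many mitochondria.

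By role, the members were 24 complex I subunits, 6 complex I assembly factors, 4 complex II subunits, 1 complex II assembly factor (SDHAF4), 5 complex III subunits, cytochrome c (CYCS), 7 complex IV subunits and associated proteins, 6 complex IV assembly factors, 7 ATP synthase subunits and 3 mitochondrially encoded complex IV subunits. The mitochondrially encoded members had almost no counts. COX1 had 25 UMIs over all barcodes, COX2 had 3 and COX3 had 0, of 245753535 UMIs, and a count of 0 allows a level of up to 0.0122 counts per 1000000 UMIs (CPM). The 13 protein-coding mitochondrial genes together had 36 UMIs. The study's methods describe mitochondrial genes as lacking annotation in the opossum genome, while the files list these genes, so the limit covers counting only and is none on expression. These 3 members were left out of the sums, which therefore cover the 61 nuclear-encoded members. The 61 held 338065 UMIs in labelled nuclei, or 0.149% of all UMIs there, and NDUFAF2, COX10 and NDUFS4 supplied 26.9% of those. Reads in introns were counted, so the values measure RNA in the nucleus, including unspliced RNA, and not protein.

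Total counts were 59170718 and 55625042 UMIs in the libraries of animal 1 and 61251720 and 69706055 in those of animal 2, and between 16 and 30 barcodes were shared by any pair of libraries. Of 36558 barcodes, 32764 carried a subclass label. Fixed markers were highest in the labelled subclass of both animals for Sst (SST), Vip (VIP), Lamp5 (LAMP5, HAPLN1) and, for every listed marker with a symbol, the 5 non-neuronal subclasses. PVALB and TAC1 had no symbol in the files, so the Pvalb label rests on the deposited annotation. LHX6 stood at 185 and 179.8 CPM in Pvalb and at 324 and 316 CPM in Sst, so it does not tell Pvalb from Sst. FREM1 was highest in Lamp5, so the subclass labelled Frem1 is named here by its label only.

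Pvalb nuclei held the highest summed level of the members among neurons. The sum was 2169.5 CPM in animal 1 and 2065 CPM in animal 2, against 1207 to 1834 CPM in the other 12 neuronal subclasses. The ratio of Pvalb to the mean of the other 12 was 1.42 ± 0.0211 (SD, n = 2 animals). Errors on levels below are SDs over the 2 animals. Within the GABAergic class, Vip stood at 1763 and 1834 CPM, Lamp5 at 1735 and 1645, Sst at 1623 and 1558 and Frem1 at 1598 and 1578. Without NDUFAF2, COX10 and NDUFS4, a choice made after seeing the data, Pvalb stood at 1478 and 1415 CPM and Vip at 1291 and 1404. The 2 subclasses were then close in animal 2. Among glutamatergic neurons, L5NP (near-projecting) stood at 1683 and 1583 CPM, L6b at 1511 and 1616, L6CT (corticothalamic) at 1420.4 and 1400.4 and L5PT (pyramidal tract) at 1429 and 1321. The intratelencephalic subclasses IT_C, IT_A, IT_B and IT_D held the lowest means besides L5PT, from 1406 ± 49.0 CPM in IT_C to 1211 ± 5.55 in IT_D. Ordered by mean, 4 of the 12 neighbouring pairs of neuronal subclasses did not overlap between animals. They were Pvalb and Vip, Vip and Lamp5, L6b and L6CT, and IT_B and IT_D. The other 8 neighbours overlapped.

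**Figure D1:**
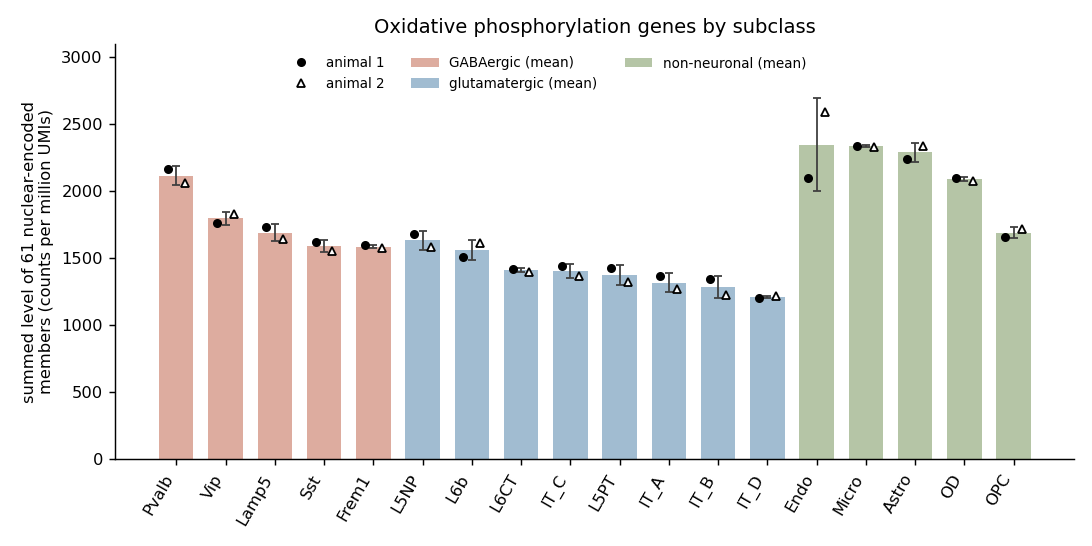
Summed level of the 61 nuclear-encoded members, in CPM, for each of the 18 subclasses. Bars are means, error bars SDs over 2 animals, and points the animals. Pvalb (2169.5 and 2065) stands above all 12 other neuronal subclasses, and 4 of 5 non-neuronal subclasses stand at or above 2079.

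The place of Pvalb was the same in each library. Pvalb stood at 2137 and 2203 CPM in the libraries of animal 1, where the highest other neuronal subclass reached 1759 and 1774. It stood at 2031 and 2091 CPM in those of animal 2, where the highest other reached 1784 and 1894. The ratio to the mean of the other 12 ranged from 1.40 to 1.46 over the 4 libraries. The 6 Pvalb types that the study separated lay between 1910 and 2282 CPM in animal 1 and between 1924.5 and 2174 in animal 2. All 6 lay above the 4 Sst types, which reached at most 1734 and 1627 CPM in the animals. The nearest large neuronal type was Vip_1, at 1861 and 1941 CPM, which in animal 2 was above 1 of the 6 Pvalb types.

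Sequencing depth moved with the summed level. Over the 18 subclasses the member sum was lower where nuclei held more UMIs (Spearman's rho -0.872 against the median UMIs, n = 18 subclasses), and likewise over the 13 neuronal subclasses (rho -0.769, n = 13). It was higher where the 42 cytosolic ribosomal protein genes, short cytoplasmic messages, were higher (rho 0.864, n = 18, and 0.780, n = 13). These are descriptions across subclasses that share libraries and animals. Pvalb nuclei had medians of 7195 and 6987 UMIs. They were deeper than the other 4 GABAergic subclasses (4909 to 6793 UMIs in animal 1, 4681.5 to 6293 in animal 2) and shallower than 7 of the 8 glutamatergic subclasses in animal 1 (7167 to 10712.5 UMIs) and 6 of the 8 in animal 2 (6043.5 to 8763). The ribosomal protein sum in Pvalb was 501 ± 0.506 CPM, 0.957 ± 0.0362 times the mean of the other 12 neuronal subclasses, while the member sum was 1.42 times theirs. With nuclei of at least 3000 UMIs alone, the Pvalb ratio of the members was 1.43 ± 0.0212.

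Nuclei were also compared within ranges of depth. From 2000 to under 4000 UMIs the member sum was 2209 and 2050.0 CPM in Pvalb, 1914 and 1697 in the other GABAergic nuclei and 1323 and 1262 in glutamatergic nuclei. From 4000 to under 8000 UMIs it was 2251 and 2111 CPM in Pvalb, 1696 and 1671 in the other GABAergic nuclei and 1502 and 1372 in glutamatergic nuclei. From 8000 UMIs up it was 2132 and 2047 CPM, 1580.2 and 1562, and 1369 and 1284. In these 3 ranges both Pvalb values lay above the values of the other neurons. Below 2000 UMIs, Pvalb (1831 and 1874 CPM from 86 and 58 nuclei) lay below the other GABAergic nuclei (1900.0 and 1883) and above glutamatergic nuclei (1600.4 and 1619).

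**Figure D2:**
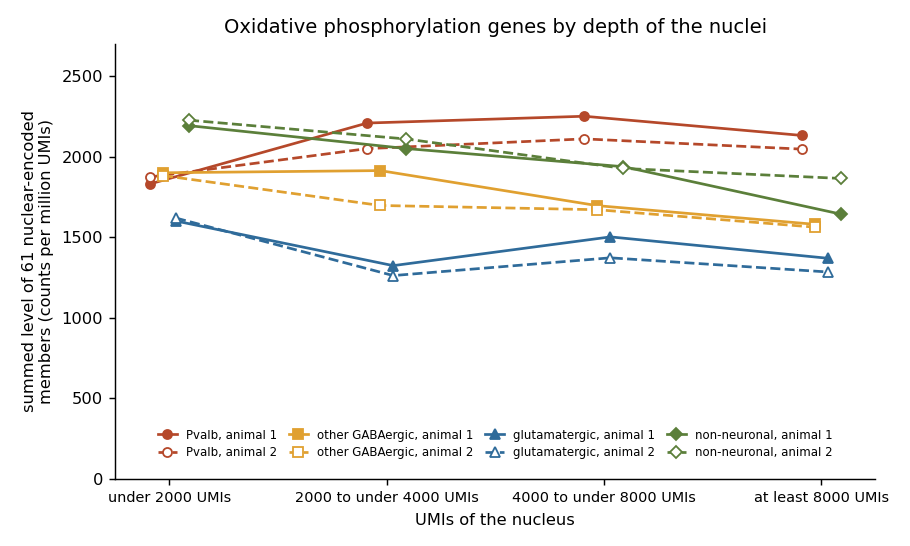
Summed level of the 61 nuclear-encoded members, in CPM, by the number of UMIs of the nucleus. Each line is 1 set of nuclei in 1 animal (filled symbols and solid lines animal 1, open symbols and dashed lines animal 2). Pvalb stays between 2047 and 2251 from 2000 UMIs up and stands above the other neurons there, but not above the other GABAergic nuclei under 2000 UMIs.

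Gene by gene, Pvalb was compared with the mean of the other 12 neuronal subclasses. Of 60 members tested, 34 were higher in Pvalb and 0 lower by edgeR's quasi-likelihood test (Benjamini-Hochberg adjusted p under 0.05). By DESeq2 the counts were likewise 34 and 0, and at an unadjusted edgeR p under 0.05 they were 39 and 0. Over all 16156 genes tested in the same fit, 19.8% were higher and 14.5% lower. The median log2 fold change was 0.41 over the members and 0.05 over all genes. All 34 had the same direction in both animals, and 54 and 52 of the 60 were above 0 in animals 1 and 2. NDUFA3 was not tested, since it had only 147 UMIs. The count was 29 to 40 under the other tests, scalings and selections of nuclei tried, except with equal nuclei per sum. There 53 nuclei entered each sum, 40 members were left to test, and 9 of these were higher (13.2% of all genes tested), all 9 among the 34, while the median log2 fold change of the tested members was 0.51.

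**Figure D3:**
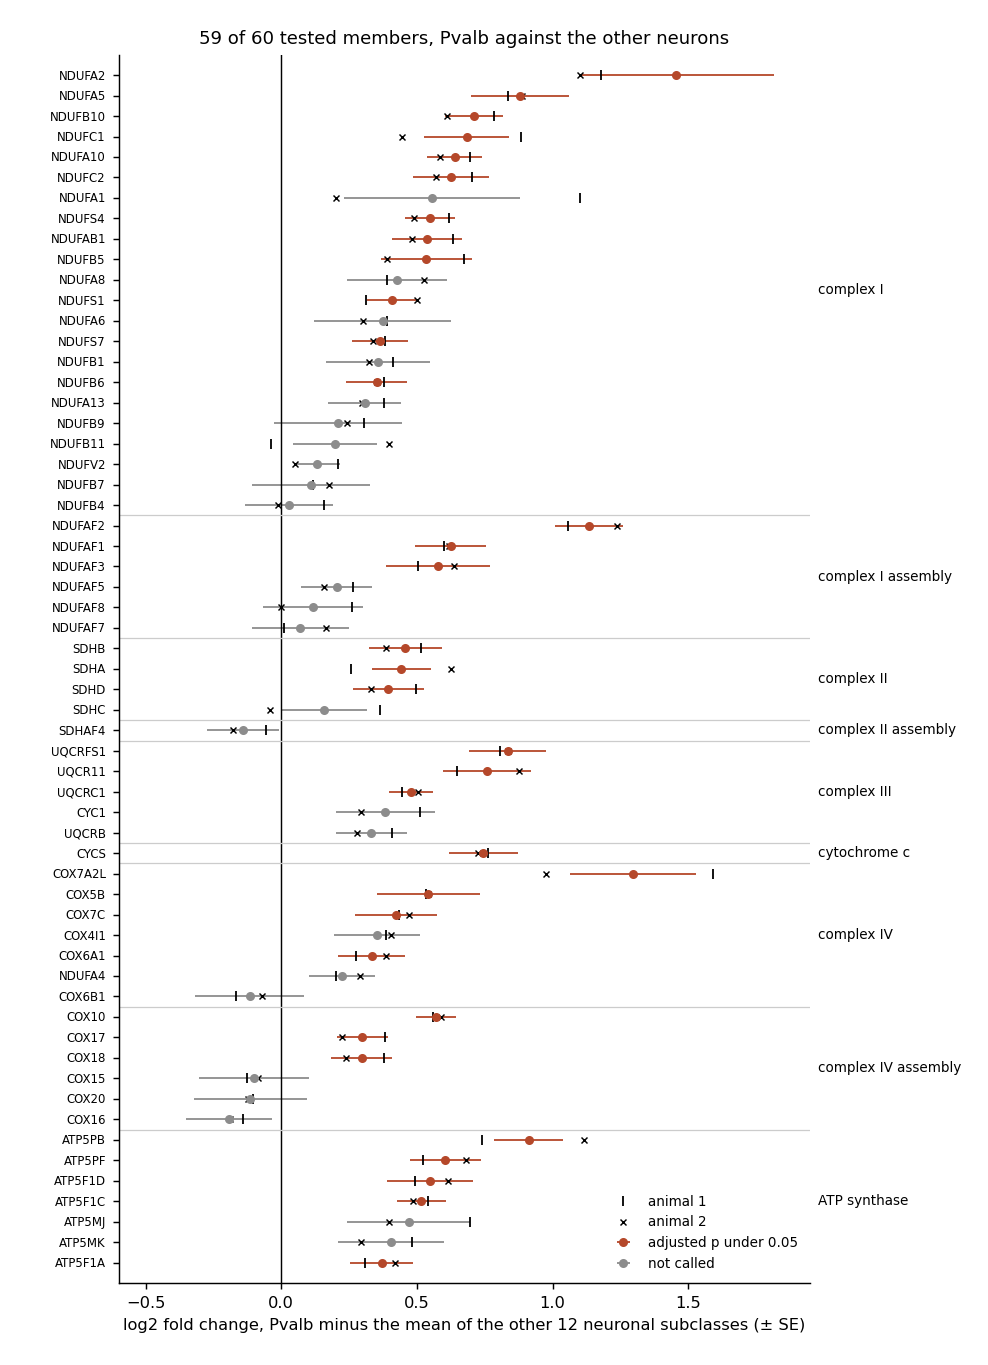
Log2 fold change of 59 of the 60 tested members, Pvalb minus the mean of the other 12 neuronal subclasses, by role. Circles are edgeR estimates with SE, in red where the adjusted p was under 0.05, and black marks are the values in each animal. The 34 called members all lie above 0, and the 5 estimates below 0, among them COX16 at -0.19, are not called.

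Complex I takes electrons from NADH, and 12 of its 23 tested subunits were higher in Pvalb, with a median log2 fold change of 0.41. NDUFA5 (ENSMODG00000045978), an accessory subunit, stood at 18.8 and 22.0 CPM in Pvalb. The 24 sums of the other neuronal subclasses ran from 3.63 through a median of 10.9 to 18.2 CPM, so the groups did not overlap (log2 fold change 0.88 ± 0.18 SE, edgeR adjusted p = 0.00053). NDUFS4 (ENSMODG00000044297), an accessory subunit whose loss causes Leigh syndrome, stood at 179 and 171.6 CPM against 90.1, 116 and 132 CPM (lowest, median and highest of the 24). It too had no overlap (0.55 ± 0.09, edgeR adjusted p = 5.58e-05). NDUFA10 (ENSMODG00000007705), another accessory subunit, stood at 55.9 and 56.0 CPM against 26.4, 34.2 and 50.4 (0.64 ± 0.10, edgeR adjusted p = 3.55e-05). NDUFS1 (ENSMODG00000016019), the largest core subunit with iron-sulfur clusters, stood at 64.1 and 73.8 CPM against 43.6, 51.2 and 60.6 (0.41 ± 0.09, edgeR adjusted p = 0.00113). All 4 of these lay above every other neuronal sum in both animals.

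Other complex I subunits overlapped. NDUFV2, a core subunit, stood at 70.1 and 58.8 CPM in Pvalb and at 42.2, 56.4 and 78.2 in the other neurons, with its highest value in Vip, and was not called (log2 fold change 0.13 ± 0.09, edgeR adjusted p = 0.271). NDUFB9 stood at 6.36 and 5.86 CPM against 1.76, 4.58 and 11.6, with its highest value in Lamp5, and was not called (0.21 ± 0.23, edgeR adjusted p = 0.57). NDUFA2 had the largest fitted value of all members, 1.46 ± 0.36 (edgeR adjusted p = 0.00313), from 3.29 and 3.39 CPM in Pvalb against 0, 1.70 and 4.74. Its Pvalb values lay inside the range of the others, and it was picked out after its values were seen.

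Of the 6 complex I assembly factors, 3 were higher in Pvalb. NDUFAF2 (ENSMODG00000019586), which acts late in complex I assembly, stood at 310.2 and 280.3 CPM in Pvalb. The other neuronal sums ran from 84.5 through 129 to 214 CPM, and the nearest were the 2 sums of L6b. The difference was 1.13 ± 0.13 on the log2 scale, or 2.20-fold (edgeR adjusted p = 2.97e-07). NDUFAF1, part of an intermediate assembly complex, and NDUFAF3, which acts early, were also higher (0.63 ± 0.13 and 0.58 ± 0.19). NDUFAF5, NDUFAF7 and NDUFAF8 were not called, with log2 fold changes of 0.20, 0.07 and 0.12.

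Complex II oxidises succinate and belongs to the citric acid cycle as well. Its flavoprotein SDHA stood at 46.6 and 52.9 CPM in Pvalb against 24.7, 35.3 and 59.2 in the other neurons (log2 fold change 0.44 ± 0.11, edgeR adjusted p = 0.00287). Its iron-sulfur subunit SDHB stood at 31.5 and 27.9 CPM against 15.2, 20.2 and 35.5 (0.46 ± 0.13, edgeR adjusted p = 0.0107). Both ranges of the other neurons reached past Pvalb through Vip in animal 1. The membrane anchor SDHD was higher (0.39 ± 0.13), and the other anchor, SDHC, was not called (0.16 ± 0.16) and had opposite signs in the 2 animals (0.36 and -0.04). SDHAF4, a chaperone of SDHA, was not called (-0.14 ± 0.13).

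Complex III and cytochrome c carry electrons on to complex IV. UQCRFS1 (ENSMODG00000012709), the Rieske iron-sulfur protein, stood at 24.3 and 20.8 CPM in Pvalb against 8.07, 13.3 and 17.5 in the other neurons, with no overlap (log2 fold change 0.83 ± 0.14, edgeR adjusted p = 7.59e-05). UQCR11, a small subunit, stood at 27.2 and 25.8 CPM against 8.77, 14.997 and 28.5, the highest in Frem1 (0.76 ± 0.16, edgeR adjusted p = 0.000809). UQCRC1, a core subunit, stood at 84.9 and 83.8 CPM against 43.5, 55.8 and 98.5, the highest in Lamp5, which stood above Pvalb in both animals (0.48 ± 0.08, edgeR adjusted p = 6.4e-05). Cytochrome c1, CYC1, stood at 12.5 and 12.0 CPM against 5.65, 8.74 and 18.7 and was not called (0.38 ± 0.18, edgeR adjusted p = 0.119). CYCS (ENSMODG00000013402), the mobile carrier, stood at 29.5 and 24.9 CPM against 10.4, 14.5 and 25.04 (0.75 ± 0.13, edgeR adjusted p = 6.51e-05). It was the highest neuronal value within each animal.

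Complex IV reduces oxygen. Of its 7 tested members, 4 were higher in Pvalb. COX7A2L (ENSMODG00000000342), which helps to join complexes III and IV into supercomplexes, stood at 10.0 and 9.37 CPM against 1.58, 3.74 and 8.53 in the other neurons (log2 fold change 1.30 ± 0.23, edgeR adjusted p = 0.000122), and was picked out after its values were seen. COX6A1 and COX7C, structural subunits, were higher by 0.33 ± 0.12 and 0.42 ± 0.15 (edgeR adjusted p = 0.0421 and 0.0339), and COX5B by 0.54 ± 0.19. COX4I1, a regulatory subunit, stood at 20.2 and 23.0 CPM against 5.45, 15.4 and 31.9, and NDUFA4, once counted to complex I, at 34.9 and 37.1 against 14.1, 27.4 and 57.9. Neither was called (0.35 ± 0.16 and 0.22 ± 0.12, edgeR adjusted p = 0.098 and 0.178), and in both the highest value belonged to Vip. With equal nuclei per sum, the COX4I1 estimate fell below 0. The complex IV sum of Pvalb was 131 and 137 CPM, and that of the other 4 GABAergic subclasses averaged 131 and 142, so the 2 ranges overlapped.

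The complex IV assembly factors were split. COX10 (ENSMODG00000008037), which starts heme A synthesis, stood at 202 and 199 CPM in Pvalb against 107, 130 and 171 in the other neurons, with no overlap (log2 fold change 0.57 ± 0.07, edgeR adjusted p = 2.51e-06). The copper chaperone COX17 was higher by 0.30 ± 0.10 (edgeR adjusted p = 0.0177), and COX18, which inserts a mitochondrially encoded subunit, by 0.30 ± 0.11. COX15, which completes heme A, stood at 7.73 and 8.33 CPM against 4.75, 8.78 and 12.3 and was not called (-0.10 ± 0.20, edgeR adjusted p = 0.788). COX16 and COX20, both helpers of the second mitochondrial subunit, were not called either (-0.19 ± 0.16 and -0.11 ± 0.21).

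ATP synthase makes the ATP. All 7 tested subunits had estimates above 0 in Pvalb, from 0.37 to 0.91 on the log2 scale, and 5 were called. ATP5PB (ENSMODG00000001351), of the peripheral stalk, stood at 43.6 and 48.7 CPM against 11.9, 24.1 and 34.8 in the other neurons, with no overlap (0.91 ± 0.13, edgeR adjusted p = 5.7e-06). ATP5F1C (ENSMODG00000016720), the rotating gamma subunit, stood at 82.7 and 77.3 CPM against 40.7, 56.1 and 72.7, also with no overlap (0.52 ± 0.09, edgeR adjusted p = 0.000101). ATP5F1A, the alpha subunit, stood at 31.6 and 32.9 CPM against 17.5, 24.5 and 33.7 (0.37 ± 0.12, edgeR adjusted p = 0.0161). ATP5PF of the peripheral stalk and ATP5F1D, the delta subunit, were higher by 0.60 ± 0.13 and 0.55 ± 0.16. ATP5MJ and ATP5MK, small membrane subunits under 14 CPM in all neuronal sums, were not called.

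In 13 of the 60 members (21.7%) Pvalb was the highest of the 13 neuronal subclasses in both animals, against 5.62% of all genes tested. Vip was the highest for 5 members (8.33%, against 4.86% of all genes tested) and Lamp5 for 3 (5% against 3.9%). Frem1 and L6b were the highest for 2 each (3.33%, against 4.16% and 4.74%). The other 8 subclasses were the highest for 0 members, against 1.42% to 3.61% of all genes tested. In 10 members both Pvalb sums lay above all 24 other neuronal sums, against 4.18% of all genes tested. These 10 were NDUFA5, NDUFA10, NDUFS1, NDUFS4, NDUFAF2, UQCRFS1, COX7A2L, COX10, ATP5F1C and ATP5PB, spread over complexes I, III and IV, their assembly and ATP synthase.

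**Figure D4:**
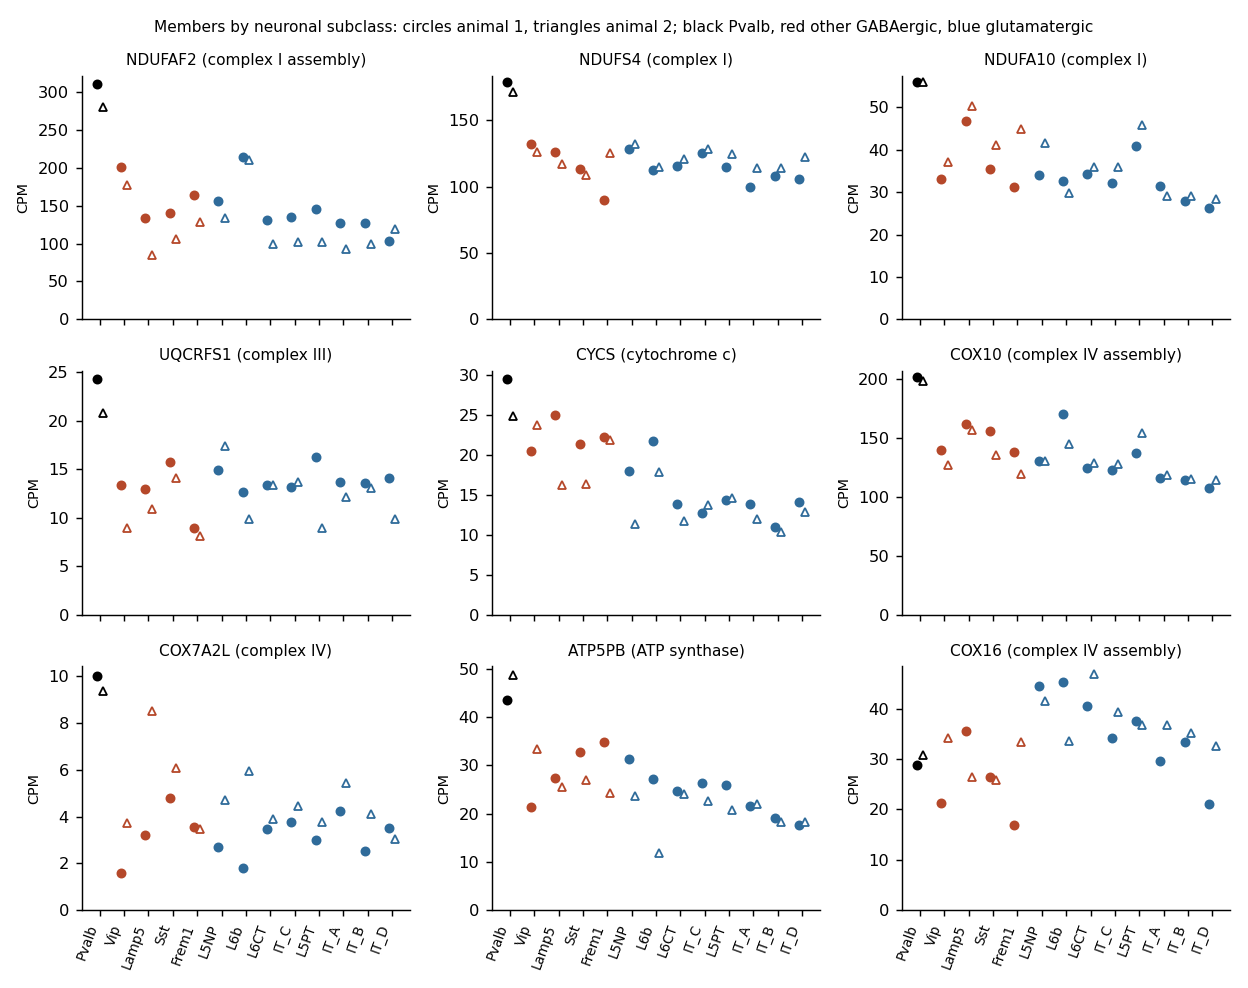
Level of 9 members in the 13 neuronal subclasses, in CPM, with circles for animal 1 and triangles for animal 2. In 7 of the panels both Pvalb values lie above all others, in CYCS Pvalb is the highest within each animal, and COX16 is the exception, with Pvalb at 28.7 and 30.9 below most glutamatergic values.

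Against its own class, Pvalb stood out less. Compared with the mean of Sst, Vip, Lamp5 and Frem1, 15 of 60 members were higher and 0 lower by edgeR (14.7% and 9.77% of all genes tested; 22 and 0 at an unadjusted p under 0.05, 14 and 0 by DESeq2), with a median log2 fold change of 0.26 over the members and 0.05 over all genes. The largest called value was that of COX7A2L (1.26), which reached 10 CPM in 1 animal only (10.0 and 9.37 CPM in Pvalb). The 5 largest that reached 10 CPM in both animals were NDUFAF2 (1.13 ± 0.15), UQCRFS1 (1.03 ± 0.17), NDUFA5 (0.81 ± 0.21), ATP5PB (0.74 ± 0.15) and NDUFS4 (0.63 ± 0.10). The summed level in Pvalb was 1.27 ± 0.0301 times the mean of the other 4 GABAergic subclasses and 1.51 ± 0.0145 times the mean of the 8 glutamatergic ones. With equal nuclei per sum, 1 of 40 members was called (9.96% of all genes tested), and the median of these 40 was 0.45.

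Against Sst, the other subclass that arises in the medial ganglionic eminence, 8 of 60 members were higher and 0 lower by edgeR (8.78% and 8.98% of all genes tested; 20 and 0 at an unadjusted p under 0.05, 8 and 0 by DESeq2). The share of members called was thus 13.3% upward and 0% downward, with a median of 0.31 over the members and 0.00 over all genes. NDUFAF2 stood out (1.27 ± 0.20), followed by NDUFB10, an accessory subunit (0.72 ± 0.16), NDUFS4 (0.67 ± 0.13), ATP5PB (0.64 ± 0.19) and NDUFA10 (0.56 ± 0.15). For NDUFB10, Pvalb stood at 38.3 and 30.5 CPM and Sst at 22.8 and 19.02. With the animal as a block the count was 17 (13.4% of all genes tested), and with equal nuclei it was 1 of 40 (5.2%), with a median of 0.39 over the 40.

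Pvalb was also set against each neuronal subclass in turn, with the same fit. In brackets stand the shares of all 16156 genes that were higher and lower in the same test. Against the intratelencephalic subclasses, members were higher in 35 of 60 for IT_A (19.1% and 20.4%), 29 for IT_B (16.4% and 18.3%), 28 for IT_C (17% and 18.7%) and 30 for IT_D (15.3% and 16.1%). Against the other glutamatergic subclasses they were higher in 31 for L6CT (17.6% and 18.3%), 30 for L5PT (15.9% and 17.5%), 17 for L5NP (13.3% and 14.7%) and 14 for L6b (10.8% and 9.96%). Against interneurons they were higher in 14 for Frem1 (10.9% and 9.12%), 10 for Vip (11.6% and 9.73%) and 9 for Lamp5 (10.9% and 9.31%), the fewest of these 11 comparisons being those with Lamp5 and Vip. Lower members were called in 2 of these 11 comparisons, COX16 (-0.61 ± 0.20) and SDHAF4 (-0.49 ± 0.17) against L6CT and NDUFB11, a complex I accessory subunit, against Vip (-0.88 ± 0.23). In the other 9 edgeR called 0 lower members, and at an unadjusted p under 0.05 there were 2 against L5NP and 0 against the other 8. Sst against the mean of the other neurons gave 3 higher members, NDUFA4, NDUFB5 and NDUFA2, and 0 lower by edgeR (13.3% and 9.63% of all genes tested; 1 lower at an unadjusted p under 0.05).

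The 2 neuronal classes differed in the members as well. The summed level averaged 1.25 ± 0.0105 times higher over the 5 GABAergic subclasses than over the 8 glutamatergic ones, and 1.19 ± 0.0168 times without Pvalb. Gene by gene, 32 of 60 members were higher in GABAergic neurons and 1 lower (20.8% and 22% of all genes tested), with a median log2 fold change of 0.31 over the members and 0.01 over all genes. With equal nuclei per sum, 11 of 40 were higher and 0 lower (17.8% and 20.7% of all genes tested), with a member median of 0.24. Scaled by library size alone, the median of all genes moved to 0.10 and 44 members were higher and 1 lower (27.7% and 18.2% of all genes tested). Each of the 5 larger complexes and CYCS had called members. NDUFA4 ran from 29.97 through 43.9 to 57.9 CPM in the 10 GABAergic sums and from 14.1 through 23.4 to 42.2 in the 16 glutamatergic sums (0.66 ± 0.08, edgeR adjusted p = 8.5e-07). COX4I1 ran from 14.98 through 22.8 to 31.9 CPM against 5.45, 14.5 and 22.1 (0.59 ± 0.12, edgeR adjusted p = 0.00029). NDUFB11 (0.67 ± 0.12), NDUFC2, an accessory subunit of complex I (0.63 ± 0.11) and UQCR11 (0.63 ± 0.12) completed the 5 largest that reached 10 CPM.

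COX16 (ENSMODG00000048581), an assembly factor of complex IV, was the exception. It ran from 16.9 through 27.6 to 35.5 CPM in GABAergic sums and from 21.1 through 36.8 to 46.9 in glutamatergic sums, lower by 0.51 ± 0.11 on the log2 scale in GABAergic neurons (edgeR adjusted p = 0.00052). The ranges overlapped, the highest glutamatergic value being that of L6CT in animal 2.

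Within the glutamatergic class, only L5PT was tested. L5PT, the large neurons that project below the cortex, had 2 members higher than the mean of the other 7 subclasses and 0 lower by edgeR (10.4% and 6.08% of all genes tested; 4 and 2 at an unadjusted p under 0.05, 2 and 0 by DESeq2), and the median of the members was 0.00. NDUFA10 stood at 40.9 and 45.7 CPM in L5PT against 26.4, 31.9 and 41.5 in the other glutamatergic sums (log2 fold change 0.49 ± 0.11, edgeR adjusted p = 0.0033). COX10 stood at 137 and 154 CPM against 107, 124 and 171 (0.27 ± 0.08, edgeR adjusted p = 0.023). Over all 13 neuronal subclasses, 33 of 60 members differed somewhere by edgeR's F test, against 57.3% of all genes tested, a share close to the background. With equal nuclei per sum, 4 of 40 members differed, against 48% of all genes tested, a share below the background.

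Non-neuronal nuclei held high summed levels. Microglia stood at 2340.3 and 2331 CPM, astrocytes at 2241 and 2341, oligodendrocytes (OD) at 2102 and 2079, endothelial nuclei at 2102 and 2592 and oligodendrocyte precursors (OPC) at 1661 and 1722. The endothelial values rest on 29 and 36 nuclei with 102 and 150 member UMIs. The place of OD rested on few genes. Without NDUFAF2, COX10 and NDUFS4, a choice made after seeing the data, OD stood at 1284 and 1289 CPM, below Pvalb at 1478 and 1415. Astrocytes (1730 and 1857 CPM) and microglia (1731 and 1759) stayed above Pvalb. Over all members, the mean of the 5 non-neuronal subclasses was 1.40 ± 0.0870 times the mean of the 13 neuronal subclasses. These nuclei were also shallower, with medians of 1403 to 2781 UMIs, and their ribosomal protein sum was 2.06 ± 0.643 times that of neurons, and 1.51 ± 0.0788 times without endothelial nuclei. Among nuclei of at least 3000 UMIs, where endothelial nuclei and microglia dropped out, the ratio was 1.25 ± 0.0542. SNAP25, SYT1 and NRGN, 3 transcripts of neurons, summed to 244 to 760.4 CPM in astrocytes, OD, microglia and endothelial nuclei and to 1078 and 1172 CPM in OPC, against 2876 to 5351 in neuronal subclasses. Where these counts came from was not tested. From 2000 to under 4000 UMIs per nucleus, non-neuronal nuclei held the members at 2051 and 2109.9 CPM, and from 4000 to under 8000 UMIs at 1938 and 1927 CPM, above the glutamatergic nuclei given for the same ranges and, in the second range, below Pvalb.

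**Figure D5:**
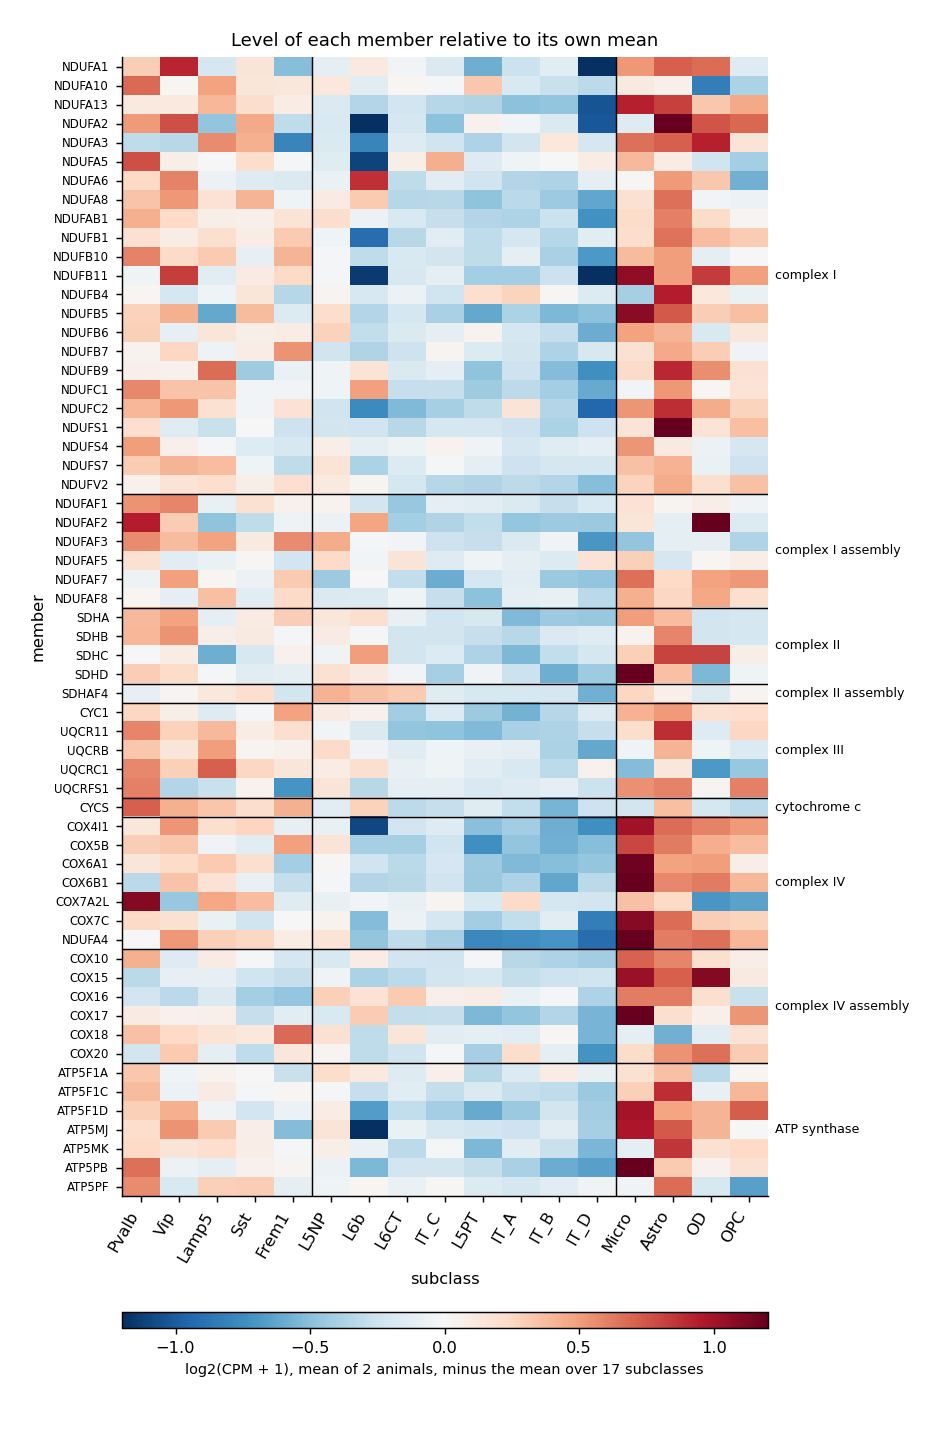
The nuclear-encoded members (60 of 61 as rows, by role) in 17 subclasses (columns, endothelial nuclei left out), as log2(CPM + 1) averaged over 2 animals minus the gene's own mean over the subclasses. Astrocytes and microglia are high for most rows, Pvalb is high for most rows among neurons, and NDUFAF2 stands out in Pvalb and OD.

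In the test over all 18 subclasses, 4 of 60 members were higher in neurons and 15 lower (30.2% and 14.6% of all 17227 genes tested). The median log2 fold change was -0.17 over the members and 0.44 over all genes. This split moved with scaling and with the endothelial sums. Scaled by library size alone, 2 were higher and 25 lower (22.9% and 19.8% of all genes tested), with a median of 0.24 over all genes, and without endothelial nuclei 5 were higher and 33 lower (31.3% and 28.2% of all genes tested). The median over the members was -0.40 with library size alone and -0.35 without endothelial nuclei. Of the 61 nuclear-encoded members, 6 had 0 UMIs in both endothelial sums. The 5 largest members lower in neurons that reached 10 CPM on the higher side in both animals were COX6B1 (-1.26 ± 0.16), NDUFA4 (-0.89 ± 0.15), COX4I1 (-0.80 ± 0.17), NDUFAF7, a methyltransferase that acts on complex I (-0.77 ± 0.18), and COX6A1 (-0.72 ± 0.16). Without endothelial nuclei these were -0.95, -0.91, -0.84, -0.59 and -0.67. All but NDUFAF7 belong to complex IV. Members higher in neurons included UQCRC1 (0.66 ± 0.10), NDUFA10 (0.91 ± 0.17) and ATP5PF. The size differed widely between animals 1 and 2 for UQCRC1 (2.03 and 0.44) and NDUFA10 (0.48 and 1.93). ATP5PF had 0 UMIs in both endothelial sums, and without them it was 0.16 and not called (edgeR adjusted p = 0.297).

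Single members stood out in some glial subclasses. NDUFAF2 was highest in OD of all 18 subclasses in both animals, at 542 and 493 CPM against 129.9 to 192 in astrocytes, OPC and microglia, so the assembly factor that stood out in Pvalb was higher still in OD. NDUFS1 stood at 183 and 264 CPM in astrocytes, against 60.6 to 121 in the other non-neuronal sums (log2 fold change 1.77 ± 0.13 against their mean, edgeR adjusted p = 3.2e-12). Astrocytes had 22 of 60 members higher than the mean of the other non-neuronal subclasses and 0 lower by edgeR (20.7% and 8.25% of all genes tested; 3 lower at an unadjusted p under 0.05), 10 of the 22 in complex I. The median log2 fold change of the members was 0.47, close to the 0.46 of all genes. The fitted values of NDUFAB1, COX7C, NDUFB5 and ATP5PF there depend on endothelial sums at 0 UMIs and are not given.

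In microglia, 5 members were higher than the mean of the other non-neuronal subclasses and 3 lower (14.5% and 9.28% of all genes tested). ATP5PB stood at 107 and 110.02 CPM against 29.7 to 61.8 in the others (log2 fold change 1.37 ± 0.19). COX17 stood at 106 and 134 CPM against 33.5 to 69.1 (1.22 ± 0.16), and SDHD at 60.3 and 46.2 against 0 to 41.2 (1.35 ± 0.26). NDUFS4 was higher by 0.49 ± 0.17, COX7C was the fifth, with endothelial sums at 0 UMIs, and NDUFB4, NDUFS1 and NDUFAF2 were lower. OD had 4 higher members, NDUFAF2 (2.05 ± 0.16), COX15 (1.12 ± 0.30), COX20 (0.68 ± 0.26) and NDUFAB1, and 0 lower by edgeR (21.5% and 9.68% of all genes tested; 1 lower at an unadjusted p under 0.05). OPC had 3 lower members, COX6B1, COX6A1 and NDUFAF2, and 0 higher by edgeR (6.36% and 19.2% of all genes tested; 1 higher at an unadjusted p under 0.05). Endothelial nuclei had COX6B1 higher and NDUFAB1, with 0 UMIs in both sums, lower (4.62% and 5.68% of all genes tested).

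Other lists of the same metabolism were read in the comparison of Pvalb with the other neurons, where 19.8% of all genes were higher and 14.5% lower. Of 18 genes of the citric acid cycle and pyruvate dehydrogenase, edgeR tested 14 and called 13 higher in Pvalb, with a median log2 fold change of 0.57. DLST, a subunit of the oxoglutarate dehydrogenase complex, stood at 63.5 and 68.9 CPM in Pvalb against a mean of 35.5 and 39.0 in the other neurons (0.81 ± 0.11, edgeR adjusted p = 5.08e-06). IDH3A, the catalytic subunit of the NAD-linked isocitrate dehydrogenase, stood at 53.5 and 63.0 CPM against 33.1 and 34.1 (0.80 ± 0.13, edgeR adjusted p = 3.91e-05). MDH2 was the tested gene not called (0.43 ± 0.20). Against the other GABAergic subclasses 10 of the 14 were higher (14.7% of all genes tested), and against Sst 8 of 14 (8.78%).

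Of 17 glycolysis genes, 9 had a symbol and 8 were tested, 3 higher and 1 lower in Pvalb. LDHB, the lactate dehydrogenase subunit that favours pyruvate, stood at 89.7 and 89.4 CPM in Pvalb against a mean of 31.3 and 26.3 in the other neurons (log2 fold change 1.76 ± 0.15, edgeR adjusted p = 3.11e-09). LDHA, the subunit that favours lactate, stood at 2.73 and 3.65 CPM against 5.24 and 6.08 (-0.81 ± 0.24, edgeR adjusted p = 0.0115). PKM and ENO1, late enzymes of the pathway, were the other higher genes (0.57 ± 0.07 and 0.70 ± 0.20).

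Of 18 regulators of mitochondrial genes, 11 were tested, 4 higher and 1 lower. PPARGC1A, the coactivator PGC-1alpha that drives mitochondrial gene expression, stood at 391 and 407 CPM in Pvalb against a mean of 81.8 and 83.3 in the other neurons (log2 fold change 2.64 ± 0.08, edgeR adjusted p = 4.98e-16). The difference was 1.41 ± 0.14 against Sst alone. Its partner nuclear receptors ESRRG (1.11 ± 0.13) and ESRRB (1.77 ± 0.27) and the related coactivator PPARGC1B (0.47 ± 0.07) were also higher. POLG, the mitochondrial DNA polymerase, was lower (-0.50 ± 0.14), and NRF1, a transcription factor of respiratory genes, was not called (0.01 ± 0.15). Of 5 tested shuttles of phosphate, ADP and creatine 4 were higher, namely the phosphate carrier SLC25A3 (0.59 ± 0.13), the channel VDAC2, creatine kinase CKB and mitochondrial creatine kinase CKMT2, which stood at 30.6 and 22.3 CPM in Pvalb against a mean of 2.05 and 0.791.

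Genes of mitochondrial protein synthesis and import had smaller medians than the members. Of 59 tested mitochondrial ribosomal proteins, 13 were higher in Pvalb, with a median log2 fold change of 0.23. Of 16 tested import genes, 1 was higher and 1 lower, with a median of 0.01. Of 41 tested cytosolic ribosomal proteins, 2 were lower in Pvalb and the other 39 were not called, with a median of -0.07.

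The summed level was also set side by side between the animals. In neuronal subclasses the ratio of animal 2 to animal 1 ran from 0.914 in IT_B to 1.07 in L6b, and in non-neuronal subclasses from 0.989 in OD to 1.23 in endothelial nuclei. In Pvalb 40 of the 61 members were higher in animal 1 and 21 in animal 2. In IT_A these were 45 and 16. With 1 animal of each age and handler, no test between them was possible.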

How the data were processed

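Nuclei of 2 animals were sequenced with the 10x 3′ kit (version 3), as 2 libraries per animal. The authors aligned the reads with Cell Ranger (6.1.1 in the submitters' processing notes, 7.1.0 in the matrix headers), introns included, to ASM229v1 with Ensembl 110 genes whose 3′ ends were extended by up to 5 kb. They deposited UMI counts per gene and nucleus, a Scrublet doublet score per nucleus as a fraction from 0 to 1, and labels. Their quality filter (over 700 and under 6500 genes, under 40000 UMIs) was checked and matched the deposited call in all 36558 barcodes. Of the 35079 that passed, the authors left 1006 in ambiguous and 1309 in doublet clusters without a subclass, and these were not used in the comparisons. Of the 32764 labelled nuclei (median 6169 UMIs), Scrublet had called 798 (2.44%), which were kept, and leaving them out was an alternative.

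Counts were summed per animal and subclass, adding the libraries of an animal, and scaled to CPM by the total of each sum. Tests used edgeR 4.0.16 in R 4.3.3 (quasi-likelihood, TMM scaling, filterByExpr, Benjamini-Hochberg over all genes tested, threshold 0.05), with 1 coefficient per subclass. The fit over neurons held 26 sums and the fit over all subclasses 36. The scripts were tested on simulated data with known changes. For Pvalb against the other neurons, 26 of 80 genes changed 1.5-fold were called, and 53 of 58 changed 4-fold. For neurons against non-neuronal subclasses these counts were 17 of 65 and 47 of 74. A member that was not called can therefore still differ. Sums range from 102 to 68205 member UMIs, so precision is lowest for Endo, L6b and IT_D. The sums of an animal come from the same tissue, so the animal pairs them. Deviations from the subclass mean of sums from the same animal correlated at 0.0345 to 0.622 (median 0.172, 78 pairs of neuronal subclasses), and the fit with the animal as a block was an alternative. Others were DESeq2 1.42.0, other scalings, no low-count filter, deeper nuclei, equal nuclei and leaving out an animal. P-values of the reported fit rest on the spread between the 2 animals within subclasses, pooled over the subclasses. That fit takes the sums of an animal as independent.

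Members, gene lists and comparisons were chosen with earlier results of these data known. Named members were, in each comparison, the 5 largest and 5 smallest log2 fold changes among called members with 1 direction in both animals and at least 10 CPM on the higher side, plus a fixed set of 38 genes, 23 of which had a symbol, in the comparison of Pvalb with the other neurons. Members named outside this rule were chosen after their values were seen. A member, kept in all sums and counts, is not reported by name and not drawn. Figures were drawn with matplotlib 3.10.9.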

Additional observations from a re-analysis of the deposited data

Results flagged for a closer look

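Some values came from barcodes and genes that no comparison used, and no cause was weighed for them. Mitochondrially encoded genes outside the member list had 8 UMIs over all barcodes. Barcodes that failed the quality filter held members at 1796 CPM in animal 1 (883 barcodes) and 1528 CPM in animal 2 (596 barcodes). Members stood at 1719 and 1699.6 CPM in GABAergic nuclei of ambiguous clusters and at 1732 and 1620.4 CPM in GABAergic nuclei of doublet clusters, below Pvalb (2169.5 and 2065) in both animals. In non-neuronal nuclei they stood at 1799 and 1839.7 CPM in ambiguous clusters and at 1636 and 1529.6 CPM in doublet clusters.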

How the results depend on the processing

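With equal nuclei per sum, fewer members could be tested (40 in neurons with 53 nuclei per sum, 27 over all subclasses with 29), and the calls fell to 9 for Pvalb against the other neurons, 1 against the other GABAergic subclasses, 1 against Sst, 11 higher and 0 lower for GABAergic against glutamatergic neurons (17.8% and 20.7% of all genes tested), 0 for L5PT (6.98% higher), 4 for any difference among neurons (48%), and 1 higher and 4 lower for neurons against non-neuronal subclasses (28.9% and 9.93%). With the animal as a block, Pvalb against Sst gave 17 higher members, and the block moved none of the counts in the other 6 comparisons it was run for by over 1.5 times. For L5PT, 1 member was called with library size alone and 1 without the low-count filter (8.92% and 6.69% of all genes tested were higher). For neurons against non-neuronal subclasses, 2 members were higher with DESeq2's size factors, 2 by DESeq2's own test and 2 with library size alone (26.4%, 26.7% and 22.9% of all genes tested), and 8 among nuclei of at least 3000 UMIs (31.4%), where Endo and Micro had under 20 nuclei per sum and dropped out. Lower there were 25 by DESeq2 (27.2% of all genes tested), 25 with library size alone (19.8%), 24 among deeper nuclei (27.5%) and 33 without Endo (28.2%), an alternative chosen after seeing the data, against 15 (14.6%) in the reported fit. The median of all genes in that comparison was 0.44 on the log2 scale with TMM, 0.34 with DESeq2's size factors, 0.24 with library size alone, 0.01 by DESeq2 and 0.07 without Endo. The median of the members was -0.17, -0.28, -0.40, -0.32 and -0.35 in the same order. The Pvalb ratio of 1.42 was 1.38 over subunits only and, in an alternative added after seeing the data, 1.31 without NDUFAF2, COX10 and NDUFS4. The non-neuronal ratio of 1.40 was 1.25 among deeper nuclei, where Endo and Micro were missing, so depth and the set of subclasses both changed. In single animals the ratios ranged from 1.41 to 1.44 and from 1.34 to 1.46. In the comparison of Pvalb with the other neurons, signs turned for SDHC, to -0.20 and for COX4I1, to -0.17, with equal nuclei. SDHC ranged from -0.041 to 0.36 between single animals, which leave no residual degrees of freedom and so no test. The cause was not tested. For 52 pairs of member and comparison there were 567 other values, those of single animals included. Of these, 520 kept direction and, where a test was possible, side of the threshold. Another 40 lost and 4 gained the call, and 3 turned, those just given.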
